A study of Homo sapiens with 6 samples.

Results

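The NF-kB genes described here, 10 of the 19974 protein-coding genes on chromosomes 1-22 and X, were taken by name: the subunits NFKB1, NFKB2, REL, RELA and RELB, the inhibitors NFKBIA, NFKBIB and NFKBIE, the ubiquitin-editing enzyme TNFAIP3 (A20) and the IkB-like protein BCL3. The rule itself uses no measured value, but the genes were proposed with earlier results of these data known. Open chromatin was mapped by ATAC-seq, in which a transposase cuts accessible DNA, in U937, an established human monocytic cell line. The 3 control lines carried control plasmids. The 3 ΔNSPs lines, each an independent clone, were depleted of the neutrophil serine proteases CTSG, ELANE and PRTN3 at the same time. All 6 were grown with geneticin at 500 ug/ml, treated with DNase at 200 units/ml for 30 min and frozen in medium with 5% DMSO. The question asked of these genes was where their open sites lay in cells with and without the proteases.

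NF-kB is a family of dimeric transcription factors built from RelA, RelB, c-Rel, p50 and p52. The p50 and p52 subunits are cut from the longer NFKB1 and NFKB2 proteins. IkB proteins hold the dimers in the cytoplasm until IkB kinase marks them for degradation, after which the dimers bind κB sites in DNA. In monocytes and macrophages the pathway drives inflammatory genes, and many genes of subunits and inhibitors, NFKBIA and TNFAIP3 among them, are themselves NF-kB targets.

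The 6 libraries differed greatly before any gene was considered. On chromosomes 1-22, X and Y the control lists held 13, 4 and 2 peaks, and clones 1, 2 and 3 had 14262, 24981 and 2188. None of the control peaks lay within 50 kb of any of the 10 genes. With lists this short, a missing control peak gives no measure of accessibility, and group differences and differences in library yield cannot be told apart. The peak lists carry no read totals, which leaves the depth unknown, and the labels name no batch. To set the labelled cell type beside its markers, a peak within 1000 bp of either gene end, called a gene-end peak here, was present in at least 2 clones at 3 of 15 monocytic and myeloid markers (CD68, ITGAM and CEBPE), with 6, 7 and 1 of the 15 in clones 1, 2 and 3. That is 20% in at least 2 clones, no more than the 23.3% of all protein-coding genes. By clone the shares were 40, 46.7 and 6.67%, against 39.1, 29.6 and 6.55% of all genes. Clone 2 thus lay above its background and clones 1 and 3 near theirs, which was not tested. A gene-end peak was absent from all clones at 5 of the 15, ITGB2, FCGR1A, LYZ, MPO and SPI1. Over all genes, 46.6% had one in at least 1 clone and no control line. At T cell markers it was present at 1 of 5 in at least 2 clones (CD3E), and at B cell (5), erythroid (5), epithelial and hepatocyte (4) and fibroblast (4) markers at 0.

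Gene-end peaks were present at 9 of the 10 NF-kB genes in clone 1, at 4 in clone 2 and at 2 in clone 3. Over all protein-coding genes the shares in the same libraries were 39.1, 29.6 and 6.55%. With each clone's list limited to its 2188 peaks of highest −log10 q, an alternative chosen after the data were seen, the counts were 2 (NFKB2 and NFKBIB), 1 (NFKBIB) and 2 (RELA and NFKBIB), against 9.53, 5.31 and 6.55% of all genes. REL, RELA, RELB and NFKBIB had one in at least 2 clones and no control line, 4 of 10 where 23.3% of all genes did. RELA and NFKBIB had one in all 3 clones, against 5.4% of all genes. NFKB1, NFKB2, NFKBIA, NFKBIE and TNFAIP3 had a gene-end peak in clone 1 alone, and BCL3 had none. Of the 4 genes, 3 were among the 5 subunits and 1 among the 5 inhibitors and regulators, a difference that was not tested. Without clone 1, or without clone 2, the count in both remaining clones was 2, RELA and NFKBIB, against 5.63 and 6.21% of all genes. At RELA the peaks of clones 2 and 3 lay at opposite gene ends, so without clone 1 no site was shared there.

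With 3 libraries against 3, the exact two-sided permutation test on the presence of a gene-end peak cannot go below p = 0.1. RELA and NFKBIB reached that value, as did 1079 genes in all, with a Benjamini-Hochberg adjusted p of 1 over 19974 genes. REL and RELB had an exact permutation p of 0.4. By this test 0 genes passed an unadjusted or adjusted 0.05. No control line had a gene-end peak at the 10 genes, so each p follows from the number of clones with a peak alone. The labels call the clones independent but do not say how the control lines were derived, so these p-values concern these libraries only.

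**Figure D1:**
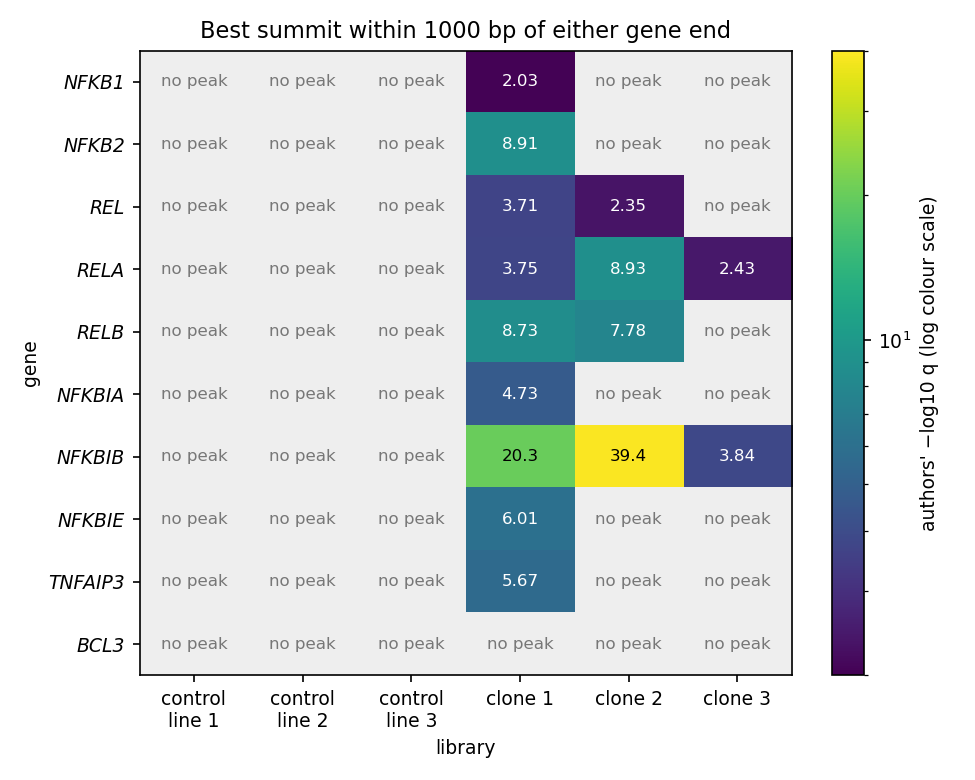
Rows are the 10 genes, columns the 6 libraries; colour (log scale) and number give the authors' −log10 q of the best summit within 1000 bp of either gene end, and grey cells have no peak. Clone 1 fills 9 rows, clone 2 fills 4 and clone 3 fills 2, and the 3 control columns are empty; the highest value, 39.4, is NFKBIB in clone 2.

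A sequence view was taken of the gene starts, since a κB site in a subunit's or inhibitor's own promoter is how NF-kB feeds back on its pathway. RefSeq start windows (GRCh38.p14, 250 bases before to 50 after a listed start) matched 8 of the 10 genes, with 13 windows. RELB and NFKBIE had no entry. The 10-letter κB consensus was searched on both strands, with overlapping matches merged. It was found in the windows of 7 of these 8 genes, all except RELA, where 15.9% of the 15813 protein-coding genes with a window held it. Counted by window it was 8 of 13, against 12.7% of 22156 windows. The 7 genes held 12 separate matches, and 6 of these, at 5 genes, lay wholly inside a peak of a clone. Clone 1 had a 5′ peak at 7 of the 8 genes, and the share of matches inside a peak over all windows was not computed. Over all genes with a window, the consensus was held by 14.4% of those called at a gene end in 2 or more clones and by 16.4% of the others, a difference that was not tested. A match describes letters in a window and is no measure of binding.

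The stretches that carry a match inside a peak are shown 5′ to 3′ on the gene's strand, from the RefSeq windows, with the κB match in capitals. They lay at chr2:60881519-60881545 (REL), chr10:102394463-102394489 (NFKB2), chr14:35404813-35404838 (NFKBIA), chr19:38899933-38899959 (NFKBIB) and chr6:137867188-137867217 (TNFAIP3). REL and NFKB2 are on the plus strand, as are NFKBIB and TNFAIP3, and NFKBIA is on the minus strand.
REL: tcagccgcGGGAAATTCCCctcccgcc
NFKB2: aacgtcatGGGAATTCCCCcctccggg
NFKBIA: actggcttGGAAATTCCCcgagcctg
NFKBIB: gcgtggtgGGGAATTTCCCgcagggcg
TNFAIP3: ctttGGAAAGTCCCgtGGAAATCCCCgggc
The NFKB1 match, at chr4:102501302-102501327 on the plus strand, is shown because it lay outside the gene's only gene-end peak.
NFKB1: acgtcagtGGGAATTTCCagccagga

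The REL match was inside the peaks of clones 1 and 2, and the matches of NFKB2, NFKBIA, NFKBIB and TNFAIP3 were inside a peak of clone 1 only. TNFAIP3 had both of its matches under the same peak. Of the other motifs searched on both strands, GGGCGG (the GC box) was in the windows of 8 of 8 genes, where 64.3% of all genes with a window held it. The ETS core CGGAAG was at 3 of 8 (29.7% of all), CCAAT at 3 of 8 (42.1%) and the cyclic AMP element TGACGTCA at 0 of 8 (3%). TGANTCA, a looser pattern than the AP-1 site, was at 1 of 8 (8.04%), as TGAATCA at NFKBIB. At NFKBIB a GGGCGG and a CGGAAG match overlapped, and no κB match in these windows overlapped another motif.

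**Figure D2:**
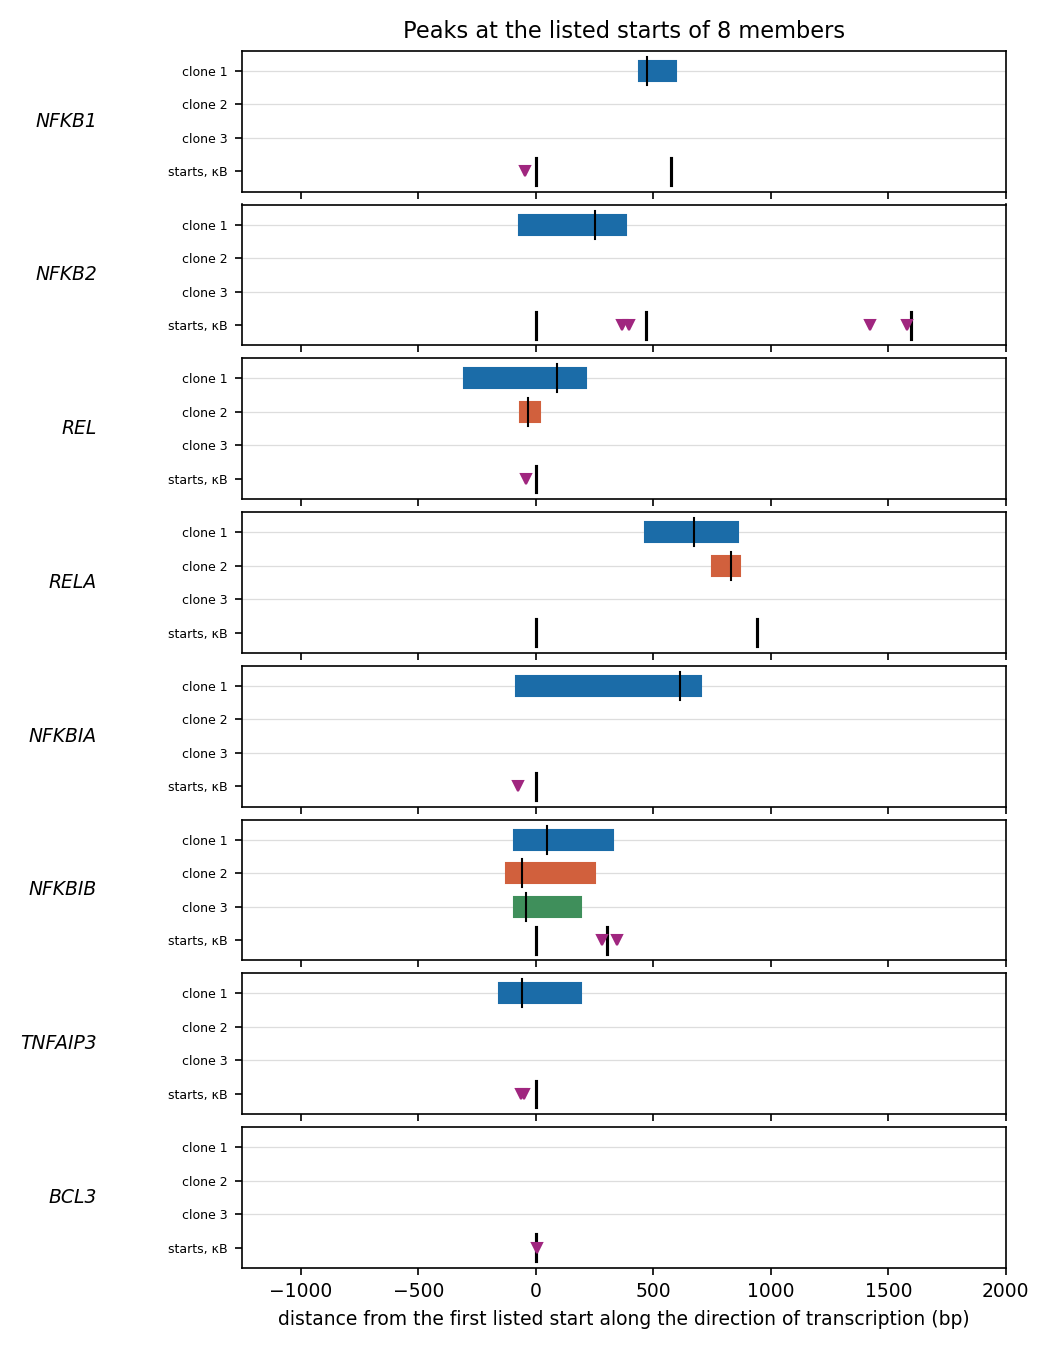
Peaks of the 3 clones (coloured bars, black tick at the best summit) against distance in bp from the first listed start, along the direction of transcription; black marks are listed starts and triangles κB matches. NFKBIB has bars in all 3 clones over its first start, REL in clones 1 and 2, RELA has bars near its second start, and BCL3 has none.

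Among the subunits, REL (chromosome 2, 60881574 to 60931612, plus strand) encodes c-Rel, a transactivating subunit prominent in lymphoid and myeloid cells. Its 5′ end had a peak of 517 bp in clone 1, at 60881270 to 60881786, and of 85 bp in clone 2, at 60881506 to 60881590. The best summit had a fold enrichment of 3.52, a −log10 p of 6.91 and a −log10 q of 3.71 in clone 1. In clone 2 these were 2.53, 5.31 and 2.35, and clone 3 had no peak. Both peaks covered the start and overlapped by 85 bp, so the clone 2 peak lay wholly within that of clone 1. They were weak within their lists, at rank 9098 of 14262 in clone 1 and 22561 of 24981 in clone 2. The clone 1 interval had 3 summits, at -101, 14 and 92 bp from the start, and it covered all 300 bases of the start window. The divergent long non-coding gene REL-DT starts 260 bp away, and its gene-end window held both peaks. The 250 bases before the start, at chr2:60881324-60881573, are shown because both clones opened in them; capitals mark the κB match.
REL: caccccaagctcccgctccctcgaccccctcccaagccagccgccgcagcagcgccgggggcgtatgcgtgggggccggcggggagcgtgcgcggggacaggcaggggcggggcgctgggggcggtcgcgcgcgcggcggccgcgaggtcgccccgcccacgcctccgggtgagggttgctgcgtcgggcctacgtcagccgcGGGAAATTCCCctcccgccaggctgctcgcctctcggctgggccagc
G and C made up 79.6% of these bases.

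RELA (chromosome 11, 65653601 to 65663857, minus strand) encodes p65, the main transactivating partner of p50. It had gene-end peaks in all 3 clones, but not at the same end. At the 5′ end, clone 1 had a peak at 65662996 to 65663393 (fold 3.13, −log10 p 6.18, −log10 q 3.08) and clone 2 at 65662989 to 65663108 (5.49, 12.9 and 8.93). These overlapped by 113 bp, and the summits lay at -266 and -109 bp from the second of the 2 listed starts, at 65662916, and 0.675 and 0.832 kb past the first, at 65663857. No peak covered either start. The long non-coding gene RELA-DT starts 90 bp from that second start, on the other strand. At the 3′ end, clone 1 had a peak at 65652736 to 65652957 (fold 4.33, −log10 p 6.96, −log10 q 3.75), 644 bp outside the gene. Clone 3 had a peak at 65652937 to 65653069 (3.98, 6.35 and 2.43), 532 bp outside. These 3′ peaks overlapped by 21 bp. Clone 2 thus had the 5′ peak alone, clone 3 the 3′ peak alone, and clone 1 both.

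RELB (chromosome 19, 45001464 to 45038192) encodes the subunit that pairs with p52 in the non-canonical pathway. Its ends are given by coordinate. At the lower-coordinate end, inside the gene, clone 1 had a peak at 45001868 to 45002094 (fold 4.37, −log10 p 11.2, −log10 q 7.49) and clone 2 at 45002017 to 45002092 (3.85, 11.6 and 7.78). The clone 2 peak lay wholly inside that of clone 1. At the higher-coordinate end, clone 1 had a peak at 45038970 to 45039495 (fold 5.91, −log10 p 12.6, −log10 q 8.73), 778 bp outside the gene. Clone 2 had a peak at 45038949 to 45039015 (3.43, 6.91 and 3.63) and a separate, stronger peak just beyond the window, at 45039393 to 45039526 (5.64, 14.8 and 10.6). Both of these overlapped the clone 1 peak, and all 3 peaks were also at an end of CLASRP. The fold of 5.91 was reached or passed by 2.77% of clone 1 peaks, the highest among the gene-end peaks of the 10 genes in that clone. Clone 3 had no peak within 50 kb of RELB.

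NFKB1 (chromosome 4, 102501359 to 102617302, plus strand) encodes p105, the precursor of p50. Its only gene-end peak was at the 5′ end in clone 1, at 102501797 to 102501954, with a fold of 3.33, a −log10 p of 4.93 and a −log10 q of 2.03. That is rank 13939 of 14262, close to the end of the list, and it left out the first listed start and covered the second. The peak was also at an end of the antisense gene NFKB1-AS1. Clone 2 had a single peak downstream, 8.41 kb past the gene's end, with a fold of 4.72, and the 116 kb gene had no further peak inside it in any clone.

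NFKB2 (chromosome 10, 102394110 to 102402529, plus strand) encodes p100, the precursor of p52. Its 5′ end had a peak in clone 1, at 102394037 to 102394493 (fold 2.87, −log10 p 12.8, −log10 q 8.91), which covered the first of 3 listed starts. Clones 2 and 3 had none there. A stronger site lay inside the gene, away from both ends. It was at 102399381 to 102399766 in clone 1 (fold 4.64, −log10 p 16.5, −log10 q 12.2) and at 102399554 to 102399760 in clone 2 (8.95, 31.1 and 25.8). The 2 summits were 17 bp apart, some 3.97 and 3.95 kb past the third listed start. In clone 2 the site ranked 234 of 24981 by −log10 q, and 0.673% of that list had a fold as high or higher. It was the only site inside one of the 10 genes and outside the gene-end windows where peaks of 2 clones overlapped.

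Among the inhibitors, NFKBIB (chromosome 19, 38899666 to 38908889, plus strand) encodes IkB-beta and was the only one of the 10 genes with overlapping gene-end peaks in all 3 clones. The peaks lay at the 5′ end, at 38899572 to 38899995 in clone 1, 38899537 to 38899919 in clone 2 and 38899572 to 38899860 in clone 3. The best summits had folds of 3.68, 6.42 and 2.29, −log10 p values of 25.4, 45.6 and 8.19, and −log10 q values of 20.3, 39.4 and 3.84 in clones 1, 2 and 3. By −log10 q the peak ranked 105 of 14262, 29 of 24981 and 943 of 2188. All 3 peaks covered the first listed start, and the summits lay at 48, -60 and -42 bp from it, in the order of the clones. In clone 1 the high rank did not come with a high fold: 43.7% of its peaks had a fold as high or higher, against 6.43% in clone 2. In clone 3, where the rank was in the middle of the list, it was 92%. SIRT2, a deacetylase gene on the other strand, starts 48 bp away, so the same peaks counted for both genes. The 47 bases between the start sites, at chr19:38899619-38899665 on the plus strand, lay under the peak in all 3 clones.
NFKBIB to SIRT2 interval: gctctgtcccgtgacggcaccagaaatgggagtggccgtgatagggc
No κB match fell in them, and the gene's match inside a peak lay before the second listed start.

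NFKBIA (chromosome 14, 35401513 to 35404749, minus strand) encodes IkB-alpha, the classical feedback inhibitor. Its 5′ end had a 789 bp peak in clone 1, at 35404045 to 35404833, and none in clones 2 and 3. The best summit, 614 bp after the start, had a fold of 4.04, a −log10 p of 8.08 and a −log10 q of 4.73. A second summit lay at -16 bp from the start, with a fold of 2.86 and a −log10 q of 2.33. The peak reached into the upstream bases far enough to hold the κB match. Those 250 bases, at chr14:35404750-35404999 on the minus strand, are shown for comparison with REL; capitals mark the match.
NFKBIA: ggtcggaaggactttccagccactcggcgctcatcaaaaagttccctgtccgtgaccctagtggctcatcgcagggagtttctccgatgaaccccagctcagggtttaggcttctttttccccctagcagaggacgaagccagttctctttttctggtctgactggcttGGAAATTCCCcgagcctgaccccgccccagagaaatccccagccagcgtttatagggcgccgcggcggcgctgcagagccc
G and C made up 59.2% of these bases, against 79.6% for REL. In clone 2 the only peak within 50 kb was weak, 35.8 kb downstream, with a −log10 q of 2.03.

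NFKBIE (chromosome 6, 44258166 to 44265551) encodes IkB-epsilon. In clone 1 it had gene-end peaks at both ends. At the higher-coordinate end there were 2, at 44265005 to 44265292 (fold 4.73, −log10 p 9.53, −log10 q 6.01) and at 44265431 to 44265554 (3.34, 5.81 and 2.77). At the lower-coordinate end, 254 bp outside the gene, lay a 1013 bp peak with 4 summits, at 44256900 to 44257912 (best summit 4.01, 8.28 and 4.91), which was also at an end of SLC35B2. Clone 2 had no gene-end peak. Its nearest, at 44264377 to 44264510 (fold 3.19, −log10 p 8.0, −log10 q 4.55), was inside the gene 1041 bp from the higher-coordinate end, just beyond the window, and overlapped no clone 1 peak.

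TNFAIP3 (chromosome 6, 137866349 to 137883312, plus strand) encodes A20, which edits ubiquitin chains to end NF-kB signalling. A peak was present at its 5′ end in clone 1, at 137867101 to 137867452, with a fold of 2.97, a −log10 p of 9.15 and a −log10 q of 5.67. The summit lay at -59 bp from the listed start, which is inside the gene as the gene table draws it. Clones 2 and 3 had no peak within 50 kb, and clone 1 had 1 other, 42.3 kb upstream, at an end of the long non-coding gene WAKMAR2. The same 5′ peak was in a window of WAKMAR2 too.

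BCL3 (chromosome 19, 44747705 to 44760044, plus strand) encodes a nuclear IkB-like protein that binds p50 and p52. All 6 libraries lacked a gene-end peak there, and none of the 300 bases of its start window was under a peak. A site upstream was shared instead: clone 1 had a peak at 44741993 to 44742282 (fold 3.35, −log10 p 12.1, −log10 q 8.27) and clone 2 at 44741942 to 44742055 (4.36, 12.1 and 8.20), 5.42 and 5.65 kb outside the gene. They overlapped by 63 bp. Clone 2 also had a peak inside the gene, at 44753430 to 44753609 (fold 3.62, −log10 p 12.1, −log10 q 8.16). Clone 3 had no peak within 50 kb.

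**Figure D3:**
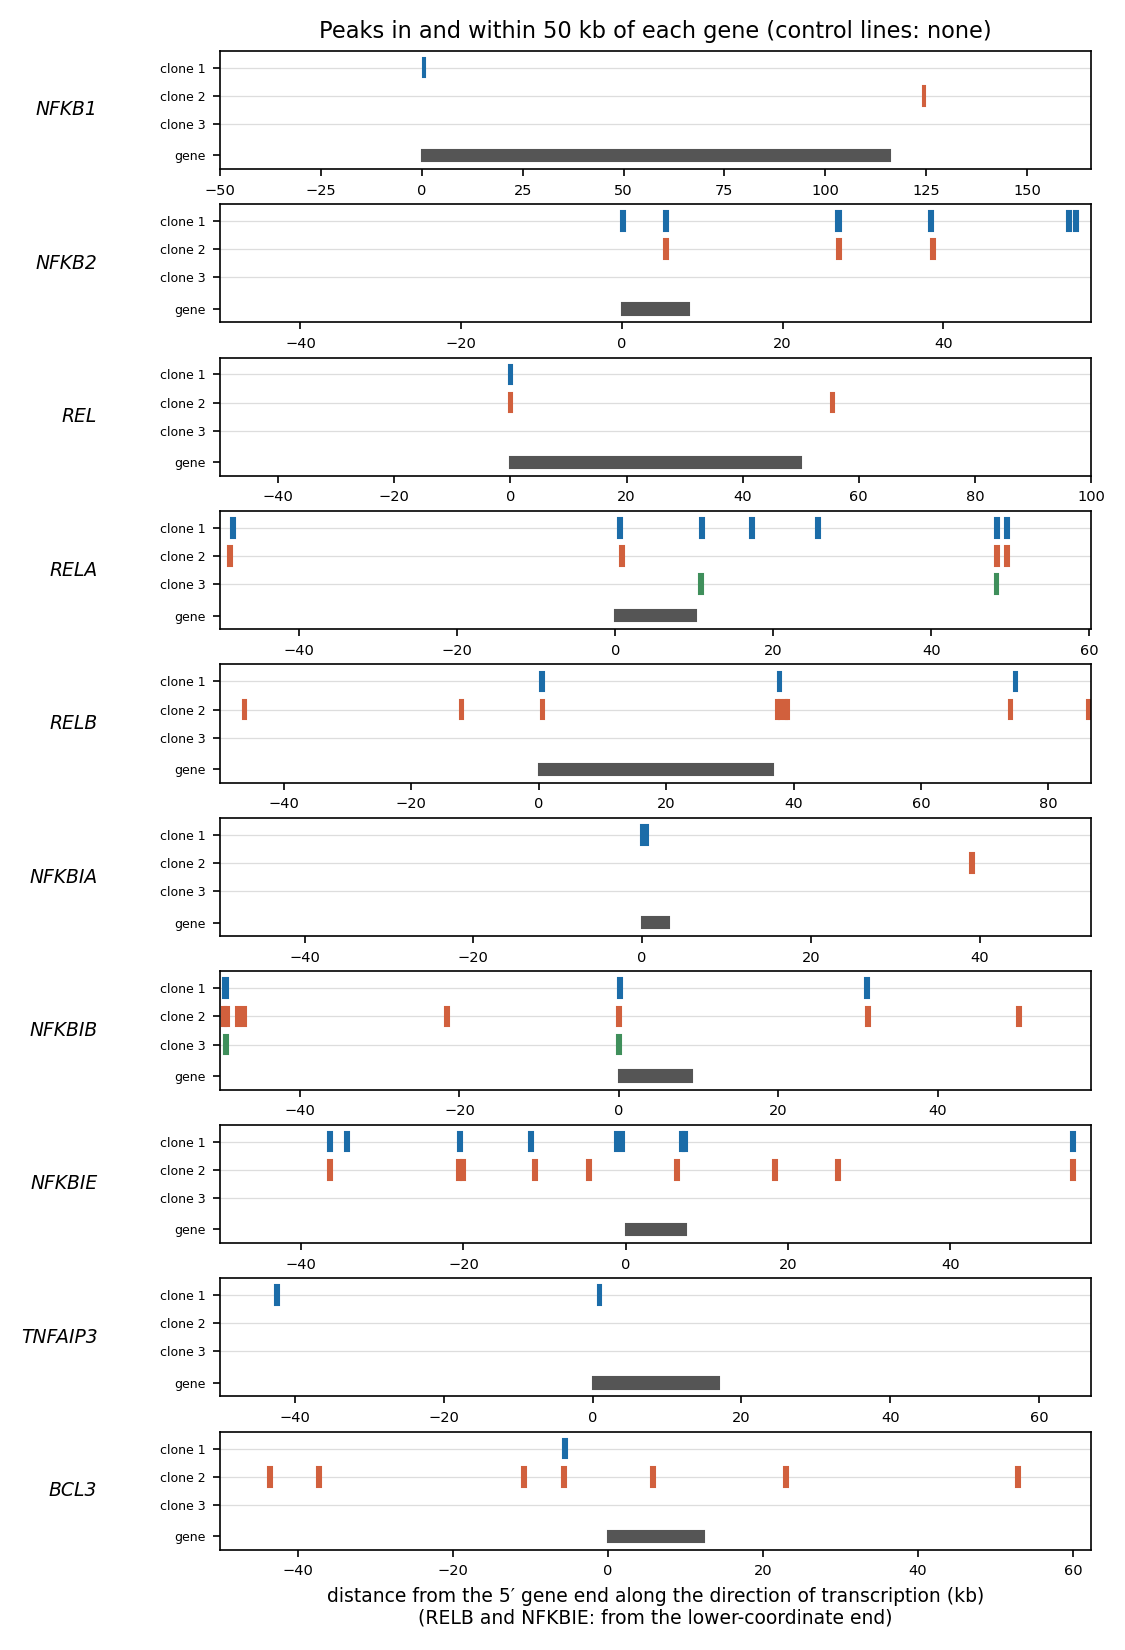
Each panel shows 1 gene (grey bar) with the peaks of clones 1, 2 and 3 (coloured; drawn at least 0.5 kb wide) in the gene and 50 kb on either side; the horizontal axis is distance in kb from the 5′ end along transcription, or from the lower-coordinate end for RELB and NFKBIE. Clone 3 has peaks only near RELA and NFKBIB, and NFKB1, NFKBIA and TNFAIP3 have 2 peaks each over all clones.

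Where the strand was listed, a 3′ peak was seen at RELA only. A peak within 1000 bp of the 5′ gene end was present in at least 2 clones at REL, RELA and NFKBIB, 3 of 8, where 23.7% of 15813 genes with a strand had one. In clone 1 it was present at 7 of the 8, all except BCL3, in clone 2 at those 3, and in clone 3 at NFKBIB. By clone, shares of all genes were not computed for the 5′ end alone. For either end they were 39.1, 29.6 and 6.55%. Requiring peaks of 2 clones to overlap at the same end kept all 4 genes, REL, RELA, RELB and NFKBIB, where 21.4% of all genes met that condition.

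Peaks of 2 or more clones touched the gene itself at 6 of the 10, where 24.6% of all genes were so touched. These were REL, RELA, RELB and NFKBIB, with NFKB2 and NFKBIE added. At NFKBIE the peaks of the 2 clones did not overlap. Without clone 1, or without clone 2, 1 gene was left, NFKBIB, against 4.78 and 5.09% of all genes. Within 50 kb, at least 2 clones had a peak at 9 of 10 genes, all except TNFAIP3, against 62.5% of all genes. RELA and NFKBIB had one in all 3 clones, for which the share of all genes was not computed. Without clone 1, or without clone 2, RELA and NFKBIB were left. That is 2 of 10 where the shares of all genes were 21.9 and 21.6%, so the count was then at the background.

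Many peaks of the flanks lay at ends of neighbours. Within 50 kb of the 10 genes clones 1, 2 and 3 had 33, 44 and 4 peaks. The means per gene were 3.3, 4.4 and 0.4, against 2.03, 2.65 and 0.34 over all genes, without correction for gene length. Of the peaks, 19, 36 and 2 lay outside the genes and their end windows. Of these, 13, 17 and 1 lay at an end of a neighbouring protein-coding or long non-coding gene. Merged over the libraries, the peaks formed 60 regions, 44 with 1 clone, 13 with 2 and 3 with all 3. Background shares for neighbouring ends and for regions were not computed. One of the 3 regions with all 3 clones was the NFKBIB and SIRT2 start. The second lay 37.8 kb downstream of RELA at an end of PCNX3, where clones 1, 2 and 3 had folds of 3.36, 3.00 and 2.34. The third lay 49.0 kb upstream of NFKBIB, at no gene end, with folds of 2.31, 3.62 and 2.54. In clone 2 the last reached a −log10 q of 31.4, rank 91 of 24981. The number of regions ranged from 2 (NFKB1, REL, NFKBIA and TNFAIP3) to 14 (NFKBIE).

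The gene-end peaks were spread widely over each list by fold enrichment, with medians near the list's own. In clone 1 the 13 gene-end peaks of the 10 genes had folds of 2.87 to 5.91 with a median of 3.68, where the median of the list was 3.54, and 7 were at or above that median. In clone 2 the 5 peaks ranged from 2.53 to 6.42 with a median of 3.85 (list 4.16), and 2 were at or above it. In clone 3 the 2 peaks had 2.29 and 3.98 (list 3.35). Gene-end peaks of clone 1 at these genes had a median width of 398 bp against 251 bp for its list. Those of clone 2 were 85 bp against 99 bp. The lists include peaks away from gene ends, and widths of gene-end peaks over all genes were not computed.

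**Figure D4:**
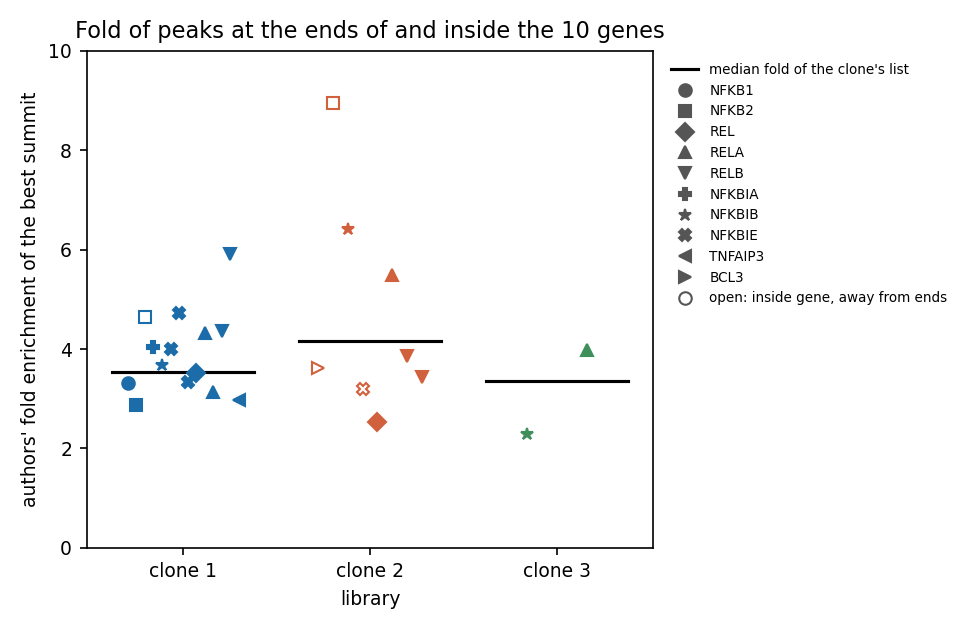
Points are the authors' fold enrichments of the best summit of every peak at an end of (filled) or inside and away from the ends of (open) the 10 genes, by clone; black lines are the median fold of each clone's whole list (3.54, 4.16 and 3.35). The NFKB2 site inside the gene is highest, at 8.95 in clone 2, and 7 of 13 gene-end peaks of clone 1 are at or above its line.

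The wider pathway was described from 2 lists. Of 51 genes upstream of or around NF-kB (receptors, adaptors, kinases and ubiquitin enzymes), 15 (29.4%) were called at a gene end in 2 or more clones, where 23.3% of all genes were. In clones 1, 2 and 3 there were 30, 17 and 3 genes, or 58.8, 33.3 and 5.88%, beside 39.1, 29.6 and 6.55% of all genes. None was present in any clone at 18 of the 51, where 46.6% of all genes had one in at least 1 clone. Only 2 of the 51 were called in all 3 clones, where 5.4% of all genes were. MAP3K14, which encodes the kinase NIK of the non-canonical pathway, was called in all 3 clones, with folds of 3.77, 4.12 and 2.64. BTRC, part of the ubiquitin ligase that recognises phosphorylated IkB, was as well, with folds of 3.76, 2.91 and 3.14. CHUK, the gene of IKK-alpha, was among those in 2 clones (2.76 and 4.86 in clones 1 and 2, at an end of ERLIN1 as well), and MAP3K7, TRAF2, TNFRSF1A and TLR2 had no gene-end peak. Of 38 NF-kB target genes, 10 (26.3%) were called in the same way, close to the 23.3% of all genes. In clones 1, 2 and 3 there were 18, 10 and 5 genes, or 47.4, 26.3 and 13.2%, beside 39.1, 29.6 and 6.55% of all genes. Clones 1 and 3 thus lay above their background and clone 2 below its own, which was not tested. None was present at 19 of the 38, beside the same 46.6% of all genes with one in at least 1 clone. In all 3 clones it was 4 of 38, beside 5.4% of all genes. The 4 with one in all 3 clones were BCL2L1, an inhibitor of apoptosis (folds 2.35, 2.22 and 2.14), SOD2, the mitochondrial superoxide dismutase (3.75, 3.37 and 2.60, at an end of ACAT2 as well), PLAU (4.63, 5.38 and 4.90) and LTA, a cytokine gene (5.27, 5.06 and 4.68). IL6, CXCL8, CCL2 and PTGS2 had none in any clone. No gene of either list had a gene-end peak in a control line, and NFKBIZ stands in both lists.

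**Figure D5:**
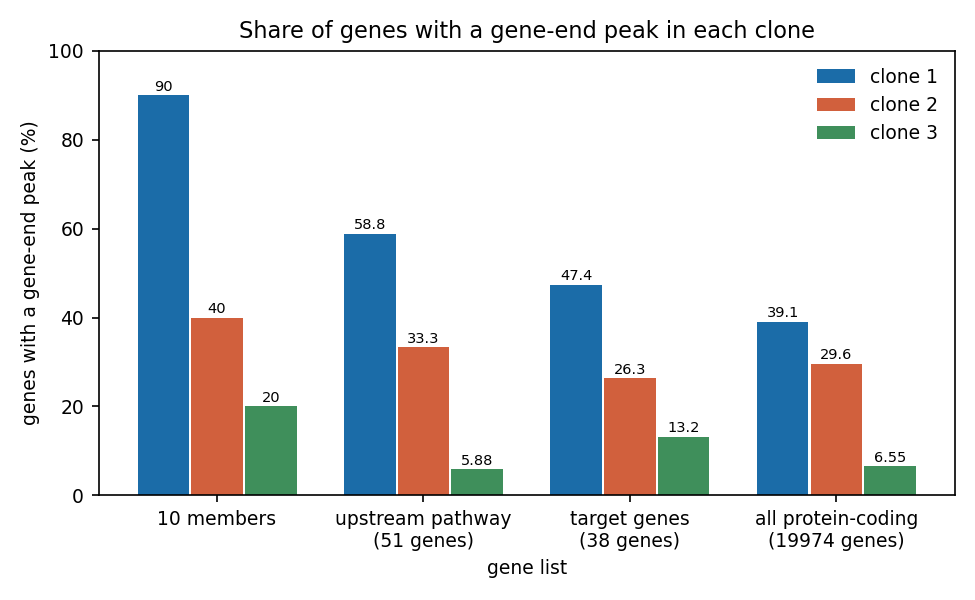
Bars give the percentage of genes with a gene-end peak in clones 1, 2 and 3 for the 10 genes, the 51 pathway genes, the 38 target genes and all 19974 protein-coding genes; each bar is 1 library, without error bars. In clone 1 the 10 genes reach 90% against 39.1% of all genes, while in clone 2 they are at 40% against 29.6%.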

How the data were processed

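ATAC-seq peak lists of 6 libraries were used, 1 list per library, grouped by sample title. Per the submitters' processing notes the tools were FastQC, Bowtie2, Picard and MACS2 on GRCh38; for versions, settings and read shifting the sources used here give nothing. The deposited columns are a fold enrichment (a ratio over local background), −log10 p and −log10 q per summit. The authors' score column equalled 10 times the −log10 q, cut to a whole number, on all 49245 lines and was not used. Lines sharing an interval were taken as 1 peak with its summit of highest −log10 q. Summit offsets below 0 (127 lines) were set to 0.

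Gene ends came from the RefSeq gene table (GRCh38.p14), and strand and starts from the promoter table. A peak counted where it touched a window by 1 bp. Windows were 1000 bp either side of a gene end, the gene, and the gene with 50 kb on each side. Counts across all 19974 genes gave the background shares. Python 3.11.15, pandas 2.3.3 and SciPy 1.17.1 were used. The window search, tested on simulated data, found 200 of 200 planted peaks.

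All 10 genes are named by rule. Other genes are named from 2 lists (every gene with a peak in all 3 clones, up to 4 without any) or where they share a peak; CHUK was chosen after its values were seen. The genes and lists were chosen with earlier results of these data known. A replicate block was not used. Alternatives covered window, threshold, overlap, strand, list length and clones left out.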

Additional observations from a re-analysis of the deposited data

How the results depend on the processing

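Of 35 alternative values, 16 stayed within 1.5 times the count reported and 19 did not. The count of genes called at a gene end in 2 or more clones (4 of 10) became 2 with a window of 500 bp (20.6% of all genes), 2 at −log10 q 5 and above (11% of all genes), 0 with a fold of 5 or more (0.661%), 2 when all 3 clones were required, 9 when 1 clone was enough (46.6% of all genes) and 1 with clone lists of equal length (4.9% of all genes). NFKBIB was counted under each of these except a fold of 5 or more. Leaving out each clone in turn gave 2 to 4. Clone 1 alone went from 9 genes to 5 at −log10 q 5 and above (22.5% of all genes) and to 2 with lists of equal length (9.53%). Clone 2 went from 4 to 2 with 500 bp (26%) and to 1 with lists of equal length (5.31%). Clone 3 went from 2 to 1 with 500 bp (5.84%) and to 0 at −log10 q 5 and above (1.83%). Equal length for single clones was chosen after seeing the data. TNFAIP3 left the clone 1 count at 500 bp, since the gene table starts the gene before the listed start. Genes touched by a peak in at least 2 clones (6) became 3 at −log10 q 5 and above (11.3%), and 1 to 6 when a clone was left out. Genes with a peak within 50 kb (9) became 2 to 9 when a clone was left out. The other causes were not tested. No paired analysis was possible because equal replicate numbers tie no control line to a clone in the labels, and the counts come from no test. Depth is unknown, so no limit of detection is given.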

Other observations

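The positions of summits against the κB matches were examined after the values were seen. In clone 2 the REL summit at 60881539 lay 2 bp past the match, in a peak of 85 bp, while in clone 1, whose peak holds the same match, the nearest summit lay 51 bp away. In clone 1 the TNFAIP3 summit at 137867200 fell inside the first of the gene's 2 matches and 4 bp from the second. At NFKBIA the nearest summit of clone 1 lay 56 bp from the match, at NFKB2 111 bp and at NFKBIB 227 bp, so summits at these 3 genes were not on the letters. The NFKB1 match lay 514 bp from the gene's only summit. These are descriptions of 5 genes with a match under a peak, with no test.

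Of target genes with a start window, 16 of 33 held the κB consensus (48.5%), and of pathway genes 11 of 44 (25%), beside 15.9% of all genes with a window. The target genes were listed because they are known NF-kB targets, so their share is not independent of that choice. The differences were not tested.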
